A study of Homo sapiens with 6 samples.

Results

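The genes described here are 40 genes of the ATF4 amino acid response and of amino acid transport, out of the 60612 genes in a table of RNA sequencing of U87 cells. They were chosen by name, by what they do, with earlier results of these data known. The list holds ATF4 and partner or target transcription factors (5 genes), its stress targets (5), enzymes of amino acid synthesis and one-carbon metabolism (12), amino acid transporters (9) and cytosolic tRNA synthetases (9). All 40 were found in the table, and all 40 passed edgeR's filter on low counts. U87, a long-established line from a human glioblastoma, was the cell used. The cells were grown in DMEM with fetal bovine serum, infected with lentivirus and kept as stable puromycin-resistant cells. They carried either a scramble shRNA (NC, 3 libraries) or an shRNA against PRMT6 (shPRMT6, 3 libraries). PRMT6 is an enzyme that methylates arginine in histones and other proteins. Which of the PRMT6 shRNAs was sequenced is not given in the sources used here, so a single shRNA against a single control is assumed, in a single cell line.

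ATF4 is a transcription factor of the integrated stress response. When amino acids run short or unfolded protein accumulates, a kinase such as GCN2 or PERK phosphorylates the initiation factor eIF2, most translation slows down, and ATF4 mRNA is translated more because of short upstream reading frames in its leader. ATF4 protein then dimerizes with C/EBP factors and binds composite elements in genes that import amino acids, make serine, glycine, proline and asparagine, and charge tRNAs. Since ATF4 is set largely by translation, the amount of its mRNA is not a measure of its protein, and RNA alone was measured in these libraries.

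The libraries summed to between 56388161 and 75887696 counts. Replicates were separate libraries, since the counts of every replicate pair differed beyond sampling noise (chi-square divided by its degrees of freedom, 48.7 to 79.2). The share of counts in the top 10 genes was 8.28% to 8.57% for NC libraries and 9.66% to 10% for shPRMT6 libraries. PRMT6, the targeted gene, had 9.33, 7.97 and 7.19 CPM (counts relative to library size, after TMM scaling) in NC replicates 1, 2 and 3, and 3.57, 4.58 and 5.24 CPM in shPRMT6 replicates 1, 2 and 3. The groups did not overlap, and the log2 fold change came to -0.87 (SE 0.187, adjusted p = 0.0225). This and each adjusted p below, unless another tool is named, come from the quasi-likelihood test of edgeR after Benjamini-Hochberg adjustment over all tested genes. An exact two-sided permutation test of PRMT6 alone gave p = 0.1, the smallest that 3 libraries against 3 allow. Without NC replicate 1, shPRMT6 replicate 1 or shPRMT6 replicate 2 the adjusted p of PRMT6 was 0.0613, 0.0588 and 0.0713. It was 0.0803 with the replicate number as a block. By limma on the deposited FPKM (scaled to transcript length), without a filter on low values, it was 0.158. In the other 10 of 15 alternative fits it was under 0.05. Among 10 glioma, mesenchymal and neural markers, VIM (vimentin), TNC and FN1 were abundant in every library. Of the neural and glial genes, GFAP and SOX2 stayed below 1 CPM and S100B was at 0. OLIG2 and CHI3L1 were not among the 3 that stayed below 1 CPM in every library. The summed level of the 10 markers was 13962 to 14486 CPM in NC and 11650 to 12437 CPM in shPRMT6. Of 11 immune, epithelial and endothelial markers, 8 were below 1 CPM in every library and 2 of these (CD3E, MS4A1) were at 0. The summed level of these 11 was 15.9 to 23.4 CPM in NC and 9.53 to 13.8 CPM in shPRMT6, and whether this bears on the members was not tested. At an adjusted p under 0.05, FN1 and TNC were lower and CHI3L1 higher of the 9 tested genes of the first list, and CDH1 and KRT8 were lower of the 6 tested genes of the second. FN1, TNC and CHI3L1 passed whichever library was left out, and CDH1 and KRT8 passed only without shPRMT6 replicate 1 (otherwise 0.0839 to 0.128 and 0.0513 to 0.0806).

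ATF4 dimers bind composite C/EBP-ATF elements, whose core is written here as TGATGNAA. This core was searched on both strands in RefSeq promoters (GRCh38.p14), in the 250 bases before a start site. Of the 40 members, 35 had an entry. Of those 35, 7 (20%) held a match, against 303 of 11788 (2.57%) of all tested genes with a promoter. Some genes have several promoters. Counted by promoter, 7 of 57 promoters of members (12.3%) held a match, against 1104 of 35116 (3.14%) of all promoters in the table. The members were chosen as genes of the ATF4 response and amino acid transport. These shares therefore describe the list and do not test it. The 7 windows below are shown because they hold the core of the element that ATF4 is known to bind, in known targets such as ASNS. They were picked after the values had been seen. Each is at most 30 bases, written 5′ to 3′ on the strand of the gene, with the core in capitals (TGATGNAA, or its reverse complement where the match lies on the other strand).

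ASNS, chr7:97872458-97872487, minus strand: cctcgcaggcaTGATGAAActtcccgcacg
SLC1A5, chr19:46784893-46784922, minus strand: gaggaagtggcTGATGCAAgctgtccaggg
CEBPG, chr19:33374060-33374089, plus strand: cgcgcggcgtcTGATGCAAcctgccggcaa
CHAC1, chr15:40953251-40953280, plus strand: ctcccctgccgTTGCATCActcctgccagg
AARS1, chr16:70289675-70289704, minus strand: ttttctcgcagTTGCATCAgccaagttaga
IARS1, chr9:92293698-92293721, minus strand: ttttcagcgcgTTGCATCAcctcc
GARS1, chr7:30594834-30594863, plus strand: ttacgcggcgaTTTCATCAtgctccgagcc

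Counted from the RefSeq start site, the core began at -68 in ASNS, -97 in SLC1A5, -42 in CEBPG, -209 in CHAC1, -187 in AARS1, -13 in IARS1 and -33 in GARS1. In GENCODE 29 the AARS1 window lay before the gene and the CEBPG window in an intron. The other 5 lay in an exon of a transcript that starts further upstream. Of these, the SLC1A5 window lay well inside the gene, whose first base in GENCODE 29 is 46788594 on the minus strand. None of the 7 genes passed an adjusted p of 0.05 between shPRMT6 and NC, as set out gene by gene below. Of the 12 members that passed and had a promoter in the table, 0 held the core in the stretch searched. This says only that these letters are not in the 250 bases before the start site. The members ALDH1L2, PSPH, PYCR1, SHMT2 and YARS1 had no entry.

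The comparison of shPRMT6 with NC asks what changes in these cells when PRMT6 mRNA is reduced. In shPRMT6, 14 of the 40 members (35%) were lower at an adjusted p under 0.05, where 9.06% of all 18106 tested genes were lower. The 14 were ATF4, the stress targets DDIT4 and SESN2, the enzymes PHGDH, PSAT1, SHMT2, MTHFD2 and PCK2, the transporters SLC7A5, SLC3A2 and SLC1A4, and the synthetases MARS1, SARS1 and YARS1. The number higher was 0, where 9.51% of all tested genes were higher. Since the members were chosen with earlier results of these data known, these shares describe the list and do not test it. At an unadjusted p under 0.05 the counts were 18 lower and 2 higher, and by DESeq2 they were also 18 lower and 2 higher. The 2 higher were ATF5 and CTH in both. The median log2 fold change of the members was -0.23, with 28 below zero and 12 above, beside a median of -0.01 over all tested genes. All 14 members that passed had every shPRMT6 library below every NC library. Counting all 40, 21 had such a gap in the lower direction (19.9% of all tested genes) and 5 in the higher direction (20.3%). The size varied widely: 2 of the 14, SLC7A5 and PHGDH, fell by more than 1 on the log2 scale, and the smallest fall was that of MTHFD2. RNA was taken from whole cultures, so fewer cells with a transcript and less of it per cell cannot be told apart.

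**Figure D1:**
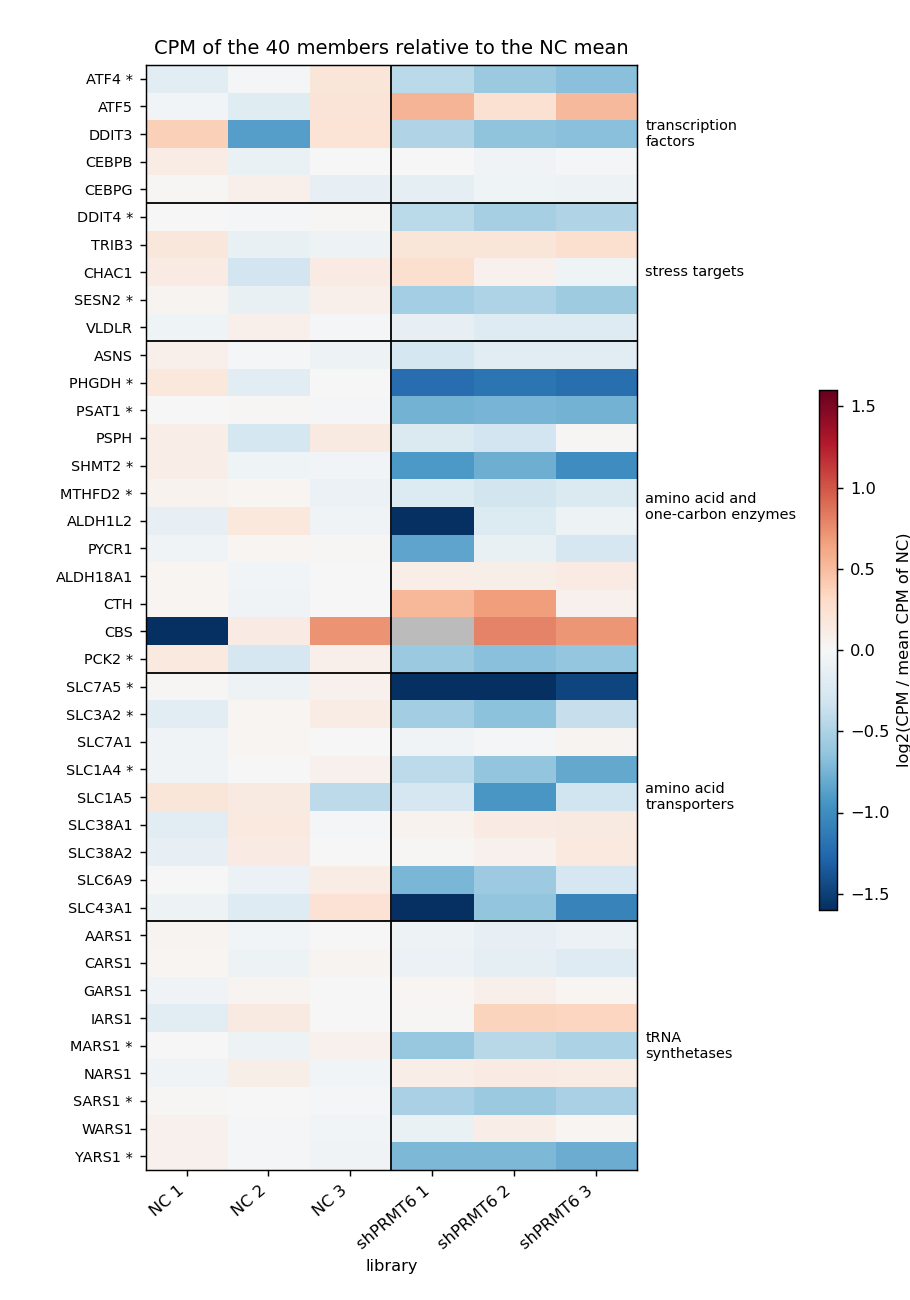
Level of each of the 40 members (rows, grouped by role) in each of the 6 libraries (columns), as the log2 ratio of its CPM to the mean CPM of the 3 NC libraries; blue is lower and red is higher, values beyond the ends of the scale take the end colour, grey marks a value of 0, and an asterisk marks the 14 members with an adjusted p under 0.05. The 3 shPRMT6 libraries are blue in all 14 asterisked rows, SLC7A5 and PHGDH are darkest among these, and ALDH1L2 and DDIT3 each show 1 library apart from its group.

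Among the transcription factors, ATF4 itself (ENSG00000128272, GRCh38 chromosome 22, from 39519695 to 39522685, plus strand) had 53.7, 59.4 and 69.5 CPM in NC and 45.2, 40.2 and 38.3 CPM in shPRMT6. The groups did not overlap, but NC replicate 1 and shPRMT6 replicate 1 were the nearest to each other. ATF4 fell by 0.56 on the log2 scale (SE 0.117, adjusted p = 0.0202), to 67.7% of its NC mean. This call depended on single libraries, since the adjusted p was 0.0548 without NC replicate 3, and 0.0776 and 0.0738 when shPRMT6 replicate 2 or 3 was left out. Of the 75-base stretches of ATF4, 7.84% were shared with its pseudogenes ATF4P4 and ATF4P3. ATF5, a related factor that is likewise regulated by translation in stress, had 50, 45.1 and 59.3 CPM in NC and 75.1, 61.2 and 73.9 CPM in shPRMT6. It lay higher in every shPRMT6 library, opposite to ATF4, with a log2 fold change of 0.44 that missed the threshold (SE 0.128, adjusted p = 0.057). Without NC replicate 3 the adjusted p of ATF5 was 0.0445, and by DESeq2 it was 0.00233. Exons of IL4I1 and NUP62 on the other strand cover 21.2% of the exon bases of ATF5, and NUP62 had a log2 fold change of -0.27 (adjusted p = 0.226).

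DDIT3, which encodes the proapoptotic factor CHOP, had 143, 59.8 and 128 CPM in NC and 78.6, 70.3 and 68.9 CPM in shPRMT6. NC replicate 2 was the lowest of all 6 libraries, so the groups overlapped, while the 3 shPRMT6 libraries were close together. The log2 fold change came to -0.60 (SE 0.3, adjusted p = 0.221). Without NC replicate 2 it was -0.90 (adjusted p = 0.00448), and without NC replicate 1 it was -0.37 (adjusted p = 0.487), so the value of DDIT3 rests on which NC libraries are used. DDIT3 and MARS1 overlap at their 3′ ends on opposite strands, and 31.6% of its exon bases lie in exons of MARS1 or MBD6 on the other strand. The library kit does not mark strand, so the reads of that stretch cannot be told apart. CEBPB, a C/EBP factor that dimerizes with ATF4, had 111 to 130 CPM in NC and 115 to 120 CPM in shPRMT6, a log2 fold change of -0.03 (SE 0.0738, adjusted p = 0.794). CEBPG, another dimer partner, had a log2 fold change of -0.10 (adjusted p = 0.395), and its groups overlapped as well.

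Of the stress targets, 2 of 5 were lower. DDIT4 (ENSG00000168209, chromosome 10, from 72273920 to 72276036), an inhibitor of mTORC1 also known as REDD1, had 492, 478 and 494 CPM in NC and 362, 339 and 349 CPM in shPRMT6. Both groups were tight and far apart, and DDIT4 fell by 0.48 on the log2 scale (SE 0.0503, adjusted p = 0.00208). Exons of DDIT4-AS1 on the other strand cover 41.2% of its exon bases. SESN2 (ENSG00000130766, chromosome 1, from 28259527 to 28282491), a leucine sensor that restrains mTORC1, had 141, 126 and 145 CPM in NC and 94, 97.1 and 92.7 CPM in shPRMT6. No shPRMT6 library came near the lowest NC library, and SESN2 fell by 0.54 (SE 0.0698, adjusted p = 0.00413). VLDLR, a lipoprotein receptor, had 183 to 203 CPM in NC and 166 to 175 CPM in shPRMT6, without overlap but with a log2 fold change of -0.18 (SE 0.0607, adjusted p = 0.0882). TRIB3, a pseudokinase that feeds back on ATF4, had 31.7, 25.8 and 26.3 CPM in NC and 31.9, 31.9 and 33.2 CPM in shPRMT6. Its groups touched without overlapping, in the higher direction, with a log2 fold change of 0.21 (SE 0.101, adjusted p = 0.201). CHAC1, which degrades glutathione and is among the most responsive ATF4-CHOP targets, was low at 6.4 to 8.68 CPM in NC and 7.54 to 9.42 CPM in shPRMT6, with a log2 fold change of 0.09 (SE 0.165, adjusted p = 0.756).

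**Figure D2:**
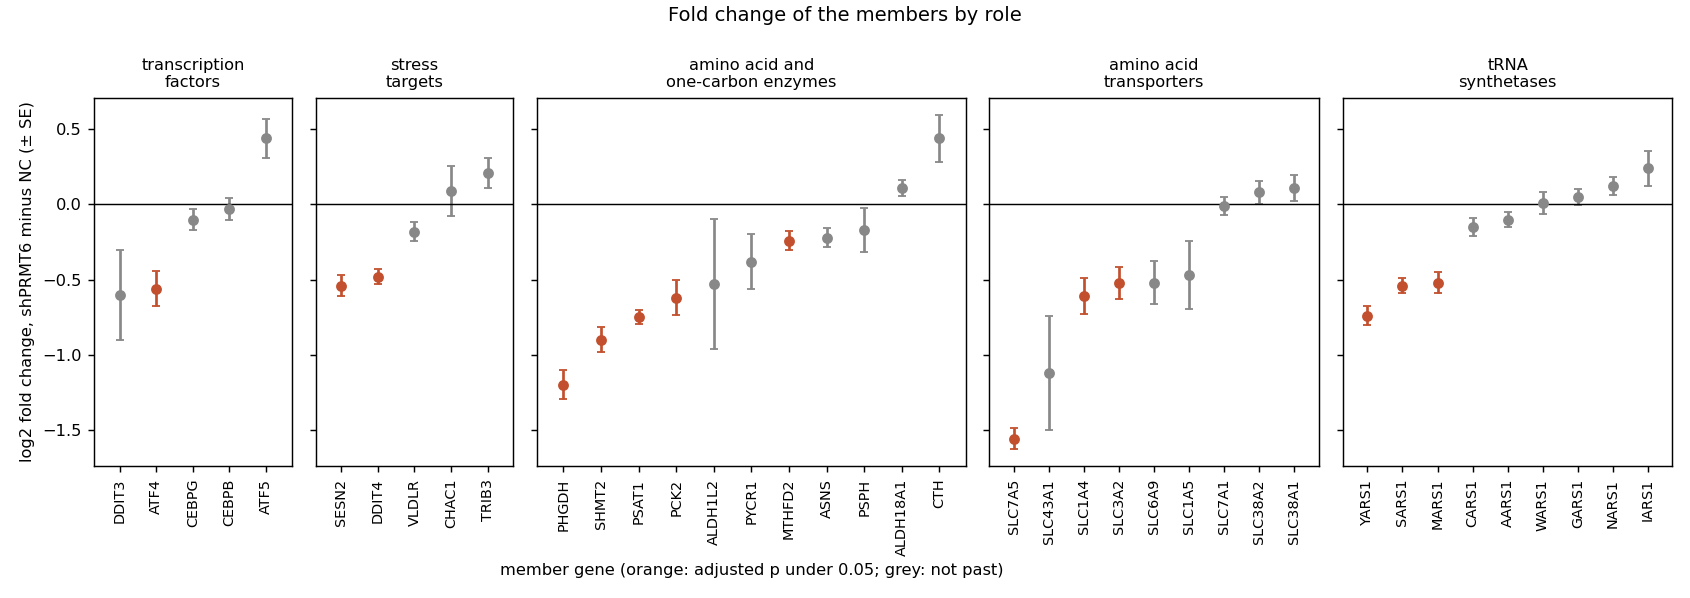
Log2 fold change of the members, shPRMT6 minus NC, with its SE as the bar, in 5 panels by role and in order of size within each panel; orange points passed an adjusted p of 0.05 and grey points did not. All 14 orange points lie below zero, from -0.24 for MTHFD2 to -1.56 for SLC7A5, and CBS is left out because its SE was 1.23.

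Of the 12 enzymes of amino acid and one-carbon metabolism, 5 were lower, of which PHGDH, PSAT1, SHMT2 and MTHFD2 act in the serine and one-carbon route. Serine is made from a glycolytic intermediate by PHGDH, PSAT1 and PSPH in turn, and in mitochondria SHMT2 splits it to glycine and a one-carbon unit that MTHFD2 and ALDH1L2 pass on. PHGDH (ENSG00000092621, chromosome 1, from 119648411 to 119744226), which commits carbon to serine, had 151, 119 and 133 CPM in NC and 57.4, 59.4 and 57.9 CPM in shPRMT6. Each shPRMT6 library was below every NC library by a wide margin. PHGDH fell by 1.20 on the log2 scale (SE 0.0955, adjusted p = 0.00103), to 43.4% of its NC mean. PSAT1 (ENSG00000135069, chromosome 9, from 78297143 to 78330093), the aminotransferase of the route, had 256, 260 and 252 CPM in NC and 152, 153 and 151 CPM in shPRMT6. It was the steadiest member in shPRMT6 (coefficient of variation 0.631%) and fell by 0.75 (SE 0.0479, adjusted p = 0.00051). PSPH, the phosphatase that completes serine, had 18.6 to 25 CPM in NC and 18.4 to 22.9 CPM in shPRMT6, and its log2 fold change of -0.17 did not pass (SE 0.149, adjusted p = 0.498), with -0.29 to -0.09 when 1 library was left out.

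SHMT2 (ENSG00000182199, chromosome 12, from 57229327 to 57234935) had 227, 200 and 203 CPM in NC and 111, 122 and 105 CPM in shPRMT6. The groups lay far apart, and SHMT2 fell by 0.90 (SE 0.0835, adjusted p = 0.00153), to 53.6% of its NC mean. MTHFD2 (ENSG00000065911, chromosome 2, from 74198562 to 74217565) had 202, 199 and 183 CPM in NC and 167, 159 and 166 CPM in shPRMT6. Here the groups were separate but close, and MTHFD2 fell by 0.24 (SE 0.0611, adjusted p = 0.0373). The call for MTHFD2 was lost when any single library but NC replicate 3 was left out: the adjusted p was 0.0803 without NC replicate 1, 0.0686 without NC replicate 2, and 0.0999, 0.136 and 0.102 without shPRMT6 replicates 1, 2 and 3. ALDH1L2, the mitochondrial enzyme that turns the one-carbon unit into carbon dioxide and NADPH, had 59.3, 73.2 and 62.7 CPM in NC and 17, 56 and 61.7 CPM in shPRMT6. Its low level was that of shPRMT6 replicate 1 alone, and with this library ALDH1L2 differed by -0.53 on the log2 scale (SE 0.435, adjusted p = 0.452), without it by -0.14 (adjusted p = 0.499), and without shPRMT6 replicate 3 by -0.83 (adjusted p = 0.329).

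FPKM, which divides by transcript length, allows the genes of the route to be set beside each other. In NC the mean FPKM was 12.3 for PHGDH, 97.6 for PSAT1, 6.89 for PSPH, 38.4 for SHMT2, 33.9 for MTHFD2 and 5.76 for ALDH1L2. In shPRMT6 it was 5.36, 58.4, 6.18, 20.7, 28.8 and 4 in the same order. PSAT1 was the most abundant of the 6 in every library of both groups. PHGDH lay above PSPH in every NC library and below it in every shPRMT6 library, and SHMT2 lay above MTHFD2 in NC and below it in shPRMT6. The FPKM levels depend on the length the authors used for each gene, which for PHGDH covers several long isoforms in GENCODE 29 (9217 exon bases in all). On CPM, which does not divide by length, PHGDH lay above PSPH in every library of both groups. SHMT2 and MTHFD2 changed places on CPM as they did on FPKM, though in NC replicate 2 their CPM values were almost equal.

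**Figure D3:**
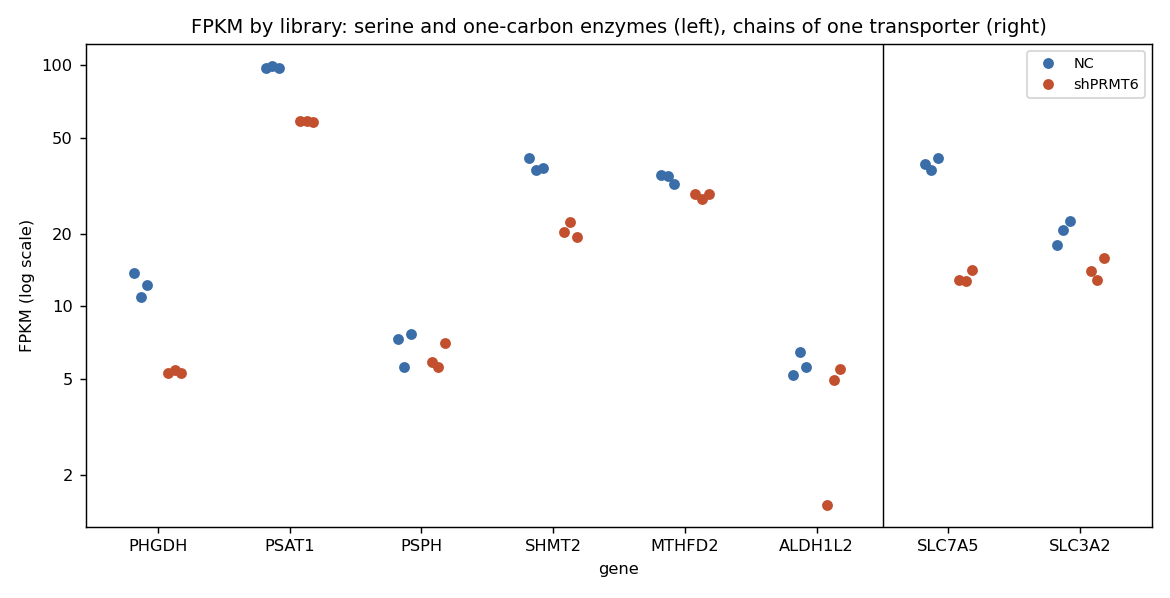
FPKM on a log axis in each library (blue NC, orange shPRMT6, 3 points each) of 6 enzymes of serine and one-carbon metabolism and, right of the line, of both chains of one amino acid transporter. PHGDH drops from 12.3 to 5.36 mean FPKM while PSPH goes from 6.89 to 6.18, and SLC7A5 goes from above SLC3A2 to slightly below it.

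The remaining enzymes, apart from PCK2, make or use other amino acids. PCK2 (ENSG00000100889, chromosome 14, from 24094053 to 24110598), the mitochondrial enzyme that makes phosphoenolpyruvate from oxaloacetate, had 52.5, 39.3 and 49.9 CPM in NC and 31.4, 29.7 and 30.8 CPM in shPRMT6. The groups did not overlap, with NC replicate 2 the nearest to shPRMT6, and PCK2 fell by 0.62 (SE 0.119, adjusted p = 0.0152). It missed the threshold without NC replicate 3 (0.0578) and without shPRMT6 replicates 1, 2 and 3 (0.0516, 0.0632 and 0.0558). ASNS, asparagine synthetase and the model gene of the amino acid response, had 230, 214 and 206 CPM in NC and 179, 191 and 191 CPM in shPRMT6. All shPRMT6 libraries were below all NC libraries, but the log2 fold change of -0.22 missed the threshold (SE 0.0635, adjusted p = 0.0595), while by DESeq2 the adjusted p was 0.0038. Of the 75-base stretches of ASNS, 38.7% were shared with other annotated genes, among them AC079781.5. Among the 3 enzymes of proline synthesis and cysteine synthesis whose groups did not overlap, PYCR1, which makes proline, had 33.5, 35.6 and 35.1 CPM in NC and 19.4, 32 and 28.9 CPM in shPRMT6, with a log2 fold change of -0.38 (adjusted p = 0.205), or -0.19 (adjusted p = 0.276) without shPRMT6 replicate 1. ALDH18A1, the first enzyme of proline synthesis, had 112 to 118 CPM in NC and 123 to 126 CPM in shPRMT6, with a log2 fold change of 0.11 (adjusted p = 0.212). CTH, which makes cysteine from cystathionine, had 19.5, 18.3 and 19.1 CPM in NC and 27.4, 30.1 and 19.9 CPM in shPRMT6. The library of shPRMT6 replicate 3 lay next to NC, and the log2 fold change came to 0.44 (SE 0.158, adjusted p = 0.104). Without shPRMT6 replicate 3 it was 0.60, with an adjusted p of 0.0243. CBS, the enzyme before CTH, had at most 0.812 CPM, with 0 counts in shPRMT6 replicate 1, and shares 52.3% of its 75-base stretches with the copy CBSL, so no direction was read from its log2 fold change of 0.16 (SE 1.23).

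**Figure D4:**
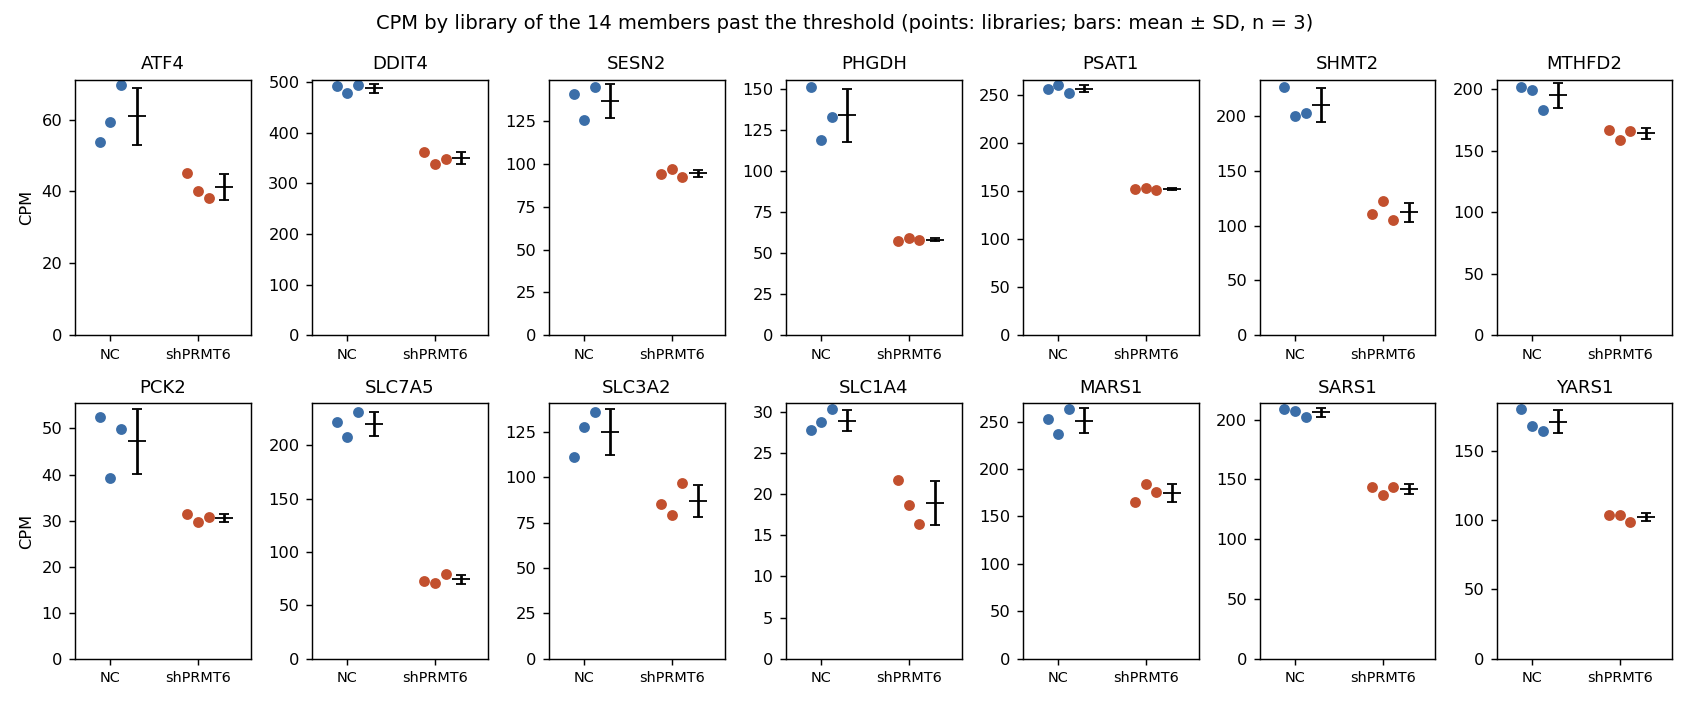
CPM of the 14 members with an adjusted p under 0.05, one panel each with an axis from 0, in the 3 NC libraries (blue) and the 3 shPRMT6 libraries (orange), with the mean ± SD (n = 3) beside the points. No panel shows overlap between groups, the wide gaps are those of SLC7A5, PHGDH, SHMT2, PSAT1 and YARS1, and the narrow one is that of MTHFD2.

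The amino acid transporters held the member with the largest fall. SLC7A5 (ENSG00000103257, chromosome 16, from 87830023 to 87869488), also called LAT1, imports leucine and other large neutral amino acids. It had 222, 208 and 231 CPM in NC and 72.7, 71.3 and 79.3 CPM in shPRMT6. Replicates of each group were close together and the groups far apart. SLC7A5 fell by 1.56 on the log2 scale (SE 0.0707, adjusted p = 0.000211), to 33.8% of its NC mean. SLC3A2 (ENSG00000168003, chromosome 11, from 62856102 to 62888875), the heavy chain CD98 that carries LAT1 to the membrane, had 111, 128 and 136 CPM in NC and 85.3, 79.1 and 96.8 CPM in shPRMT6. It was lower in every shPRMT6 library and fell by 0.52 (SE 0.107, adjusted p = 0.0195), though the adjusted p was 0.0654 without NC replicate 3, and 0.071 and 0.0704 when shPRMT6 replicate 1 or 2 was left out. The FPKM of SLC7A5 divided by that of SLC3A2 was 2.16, 1.77 and 1.83 in NC and 0.923, 0.977 and 0.888 in shPRMT6. SLC3A2 also pairs with other light chains, of which SLC7A11 is described with the other transporters below.

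SLC1A4 (ENSG00000115902, chromosome 2, from 64988477 to 65023865), which carries serine, alanine and other small neutral amino acids, had 27.8, 28.7 and 30.3 CPM in NC and 21.7, 18.7 and 16.4 CPM in shPRMT6. The groups were apart, and SLC1A4 fell by 0.61 (SE 0.119, adjusted p = 0.0161), with an adjusted p of 0.0597 without NC replicate 3 and 0.0651 without shPRMT6 replicate 2. Its relative SLC1A5, the glutamine carrier ASCT2, had 358, 345 and 233 CPM in NC and 258, 164 and 251 CPM in shPRMT6. The groups overlapped because NC replicate 3 was low, and the log2 fold change came to -0.47 (SE 0.224, adjusted p = 0.199), or -0.29 (adjusted p = 0.397) without shPRMT6 replicate 2. SLC38A2, which carries glutamine and alanine and is induced by amino acid shortage, had 484 to 581 CPM in NC and 538 to 591 CPM in shPRMT6, a log2 fold change of 0.08 (SE 0.0792, adjusted p = 0.53).

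Below these in level, SLC6A9, a glycine transporter, had 12.2, 11.4 and 13.2 CPM in NC and 7.38, 8.14 and 10.1 CPM in shPRMT6. Its groups did not overlap, and the log2 fold change of -0.52 just missed the threshold (SE 0.145, adjusted p = 0.0522). It passed without shPRMT6 replicate 3 (adjusted p = 0.0403) and by DESeq2 (0.00303). SLC43A1, a leucine carrier, was at most 1.6 CPM, with 72, 90 and 100 counts in NC and 22, 54 and 44 in shPRMT6. Its groups did not overlap either, and its log2 fold change was -1.12 with a wide error (SE 0.379, adjusted p = 0.0903). The arginine carrier SLC7A1 and the glutamine carrier SLC38A1 overlapped between groups, with log2 fold changes of -0.01 and 0.11 (adjusted p = 0.962 and 0.436).

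Of the 9 cytosolic tRNA synthetases among the members, which join an amino acid to its tRNA, 3 were lower and the other 6 did not pass. YARS1 (tyrosine; ENSG00000134684, chromosome 1, from 32775237 to 32818153) had 180, 168 and 164 CPM in NC and 104, 104 and 98.8 CPM in shPRMT6. Its libraries stood well apart by group, and YARS1 fell by 0.74 (SE 0.0613, adjusted p = 0.00114). SARS1 (serine; ENSG00000031698, chromosome 1, from 109213918 to 109238169) had 209, 207 and 202 CPM in NC and 144, 137 and 144 CPM in shPRMT6. It was equally well separated and fell by 0.54 (SE 0.0524, adjusted p = 0.0017). MARS1 (methionine; ENSG00000166986, chromosome 12, from 57475445 to 57517569) had 253, 237 and 263 CPM in NC and 165, 184 and 176 CPM in shPRMT6. MARS1 fell by 0.52 (SE 0.0676, adjusted p = 0.00422), and 12.4% of its exon bases lie in exons of ARHGAP9 or DDIT3 on the other strand.

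The alanine enzyme AARS1 had 435 to 462 CPM in NC and 412 to 427 CPM in shPRMT6, without overlap, with a log2 fold change of -0.10 (SE 0.0495, adjusted p = 0.226). The cysteine enzyme CARS1 had 102 to 111 CPM in NC and 93.8 to 101 CPM in shPRMT6, again without overlap, with a log2 fold change of -0.15 (SE 0.0623, adjusted p = 0.158). NARS1 (asparagine) lay the other way, at 184 to 205 CPM in NC and 207 to 210 CPM in shPRMT6, with a log2 fold change of 0.12 (adjusted p = 0.23). IARS1 (isoleucine) had 366 to 458 CPM in NC and 419 to 527 CPM in shPRMT6, which overlap, and a log2 fold change of 0.24 (SE 0.118, adjusted p = 0.207). GARS1 (glycine) and WARS1 (tryptophan) had log2 fold changes of 0.05 and 0.01, with overlapping groups. The synthetases that did not pass thus had log2 fold changes between -0.15 and 0.24.

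The members differed in how much they varied between replicates. In NC the coefficient of variation ran from 1.48% for PSAT1 and 1.81% for DDIT4 to 22% for SLC1A5, 40.1% for DDIT3 and 69.1% for CBS. In shPRMT6 it ran from 0.631% for PSAT1 to 54.2% for ALDH1L2 and 86.7% for CBS. On FPKM, the level in NC ran from 0.0567 for CBS to 200 for DDIT4, and members that fell were found at all but the lowest levels, from SLC1A4 at 3.51 to DDIT4 at 200. Of the 18 members with no exon overlap with another gene and no shared 75-base stretch, 6 passed (SESN2, PHGDH, PCK2, SLC3A2, SLC1A4 and SARS1). Of the 22 members with an overlap or a shared stretch, 8 passed. Any size counted, from 0.731% of the 75-base stretches of PSAT1 to 52.3% of those of CBS. The median log2 fold change was -0.05 for the 18 and -0.42 for the 22, and the part that shared reads have in this was not tested.

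Of the 14 members that were lower, 7 passed in all 15 alternative fits: DDIT4, PHGDH, PSAT1, SHMT2, SLC7A5, SARS1 and YARS1. SESN2 and MARS1 missed the threshold in a single fit (limma on FPKM without a filter on low values), and both passed whichever library was left out. ATF4, MTHFD2, PCK2, SLC3A2 and SLC1A4 each lost the call with some library left out, as given above.

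The other genes of the pathway were counted in 6 lists. For the machinery upstream of ATF4, 20 genes for the kinases of eIF2, eIF2 itself, its exchange factor and its phosphatase, 1 was lower (5%, beside 9.06% of all tested genes) and 2 were higher (10%, beside 9.51%). The higher ones were the kinases EIF2AK4 (GCN2, the sensor of uncharged tRNA), at 65 ± 2.38 CPM in NC and 88.1 ± 4.12 CPM in shPRMT6 (SD, n = 3; log2 fold change 0.44, adjusted p = 0.00649), and EIF2AK1 (HRI, the heme-regulated kinase; 0.31, adjusted p = 0.0197). The lower one was the phosphatase subunit PPP1CA (-0.64, adjusted p = 0.0353). EIF2AK4 passed whichever library was left out. EIF2AK1 did not pass without NC replicate 3, shPRMT6 replicate 1 or shPRMT6 replicate 2 (adjusted p from 0.0681 to 0.0826), and with 1 library left out PPP1CA passed only without NC replicate 2 (otherwise 0.0762 to 0.107). Kinase activity and phosphorylation of eIF2 are not read from RNA.

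Of 18 other targets of the stress response that were tested, 7 were lower (38.9%, beside 9.06% of all tested genes) and 1 was higher (5.56%, beside 9.51%). STC2, a secreted glycoprotein induced by ER stress, had 420 ± 10.3 CPM in NC and 194 ± 2.2 CPM in shPRMT6 and fell by 1.11 (adjusted p = 0.000211). The death receptor TNFRSF10B fell by 0.59 (adjusted p = 0.00161), the growth factor VEGFA by 0.36 (adjusted p = 0.00246) and the alanine aminotransferase GPT2 by 0.48 (adjusted p = 0.0128). KLHL24 was higher (0.57, adjusted p = 0.0284), but of the fits with 1 library left out it passed only in that without NC replicate 2 (otherwise 0.0516 to 0.0972). The 7 lower became 4 without shPRMT6 replicate 1 or without shPRMT6 replicate 2. STC2, TNFRSF10B and VEGFA passed whichever library was left out, and GPT2 did not pass without shPRMT6 replicate 2 (0.0582). FGF21 was not tested, as it had almost no counts.

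Cytosolic synthetases and their scaffolds outside the members, 14 genes, had 2 lower (14.3%, beside 9.06% of all tested genes) and 2 higher (14.3%, beside 9.51%). The scaffold AIMP2 (-0.52) was among the lower ones, and the higher ones were HARS1 (0.40) and RARS1 (0.44). With 1 library left out, AIMP2 passed only without shPRMT6 replicate 3 (otherwise 0.0506 to 0.0876), and RARS1 did not pass without NC replicate 3, shPRMT6 replicate 1 or shPRMT6 replicate 2 (0.0609 to 0.0683), while HARS1 always passed. Of 17 mitochondrial synthetases, 3 were lower (17.6%) and 2 were higher (11.8%), beside the same shares of all tested genes. The lower ones were SARS2 (-0.62), EARS2 (-0.47) and AARS2 (-0.25), and the higher ones were CARS2 (0.53) and FARS2 (0.52). The 3 lower calls became 0 without NC replicate 3 and without shPRMT6 replicate 1, 2 or 3, 1 without NC replicate 1 and 2 without NC replicate 2. Of the higher ones, CARS2 passed in all 6 of these fits, and FARS2 did not pass without shPRMT6 replicate 1 or 2 (0.0543 and 0.0565).

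Of 20 tested amino acid transporters outside the members, 6 were higher (30%, beside 9.51% of all tested genes) and 1 was lower (5%, beside 9.06%). These counts rested on all 6 libraries: with 1 left out, 1 to 3 were higher and 0 to 1 lower. The lower one was SLC7A11 (xCT), the cystine importer and ATF4 and NRF2 target that shares the heavy chain SLC3A2, at 21.5, 33 and 26.1 CPM in NC and 17, 14.5 and 18 CPM in shPRMT6 (log2 fold change -0.70, SE 0.175, adjusted p = 0.0366). With 1 library left out, SLC7A11 passed only without NC replicate 1 (otherwise 0.0605 to 0.116). Among the higher ones were the taurine carrier SLC6A6 (0.51, adjusted p = 0.00376), SLC38A6 (0.72, adjusted p = 0.0138), SLC38A4 (0.86, adjusted p = 0.0171) and the lysosomal exporter SLC36A1 (0.62, adjusted p = 0.0361). SLC6A6 passed whichever library was left out. SLC38A6 did not pass without NC replicate 3 or shPRMT6 replicate 1 (0.0515 to 0.0526), SLC38A4 passed only without NC replicate 2 or 3 (otherwise 0.0508 to 0.063), and SLC36A1 only without NC replicate 1 (otherwise 0.0578 to 0.104). SLC7A3 and SLC38A3 were at 0 counts in all libraries.

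Of 23 tested enzymes of folate, glutamine and cysteine metabolism, 5 were lower (21.7%, beside 9.06% of all tested genes) and 2 were higher (8.7%, beside 9.51%). With 1 library left out, 2 to 6 were lower and 0 to 4 higher: without NC replicate 3 or shPRMT6 replicate 1, 2 or 3 there were 2 to 3 lower and 0 higher, and the 4 higher were without NC replicate 2. TYMS, which uses a one-carbon unit to make thymidylate, fell by 0.83 (adjusted p = 0.0016). MAT2A, which makes the methyl donor SAM used by PRMT6, fell by 0.31 (adjusted p = 0.0107), and MTHFD1L, the mitochondrial partner of MTHFD2, by 0.32 (adjusted p = 0.0168). Among the higher ones was the glutathione synthesis subunit GCLM (0.43, adjusted p = 0.028), which with 1 library left out passed only without NC replicate 2 (otherwise 0.0623 to 0.0947). TYMS passed in all 6 of these fits, MAT2A in all but that without shPRMT6 replicate 2 (0.0565), and MTHFD1L only without NC replicate 1 or 2 (otherwise 0.0572 to 0.071). TYMS is also known as a gene of proliferating cells, and whether the share of dividing cells bears on the values of SHMT2, MTHFD2 and PHGDH was not tested.

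**Figure D5:**
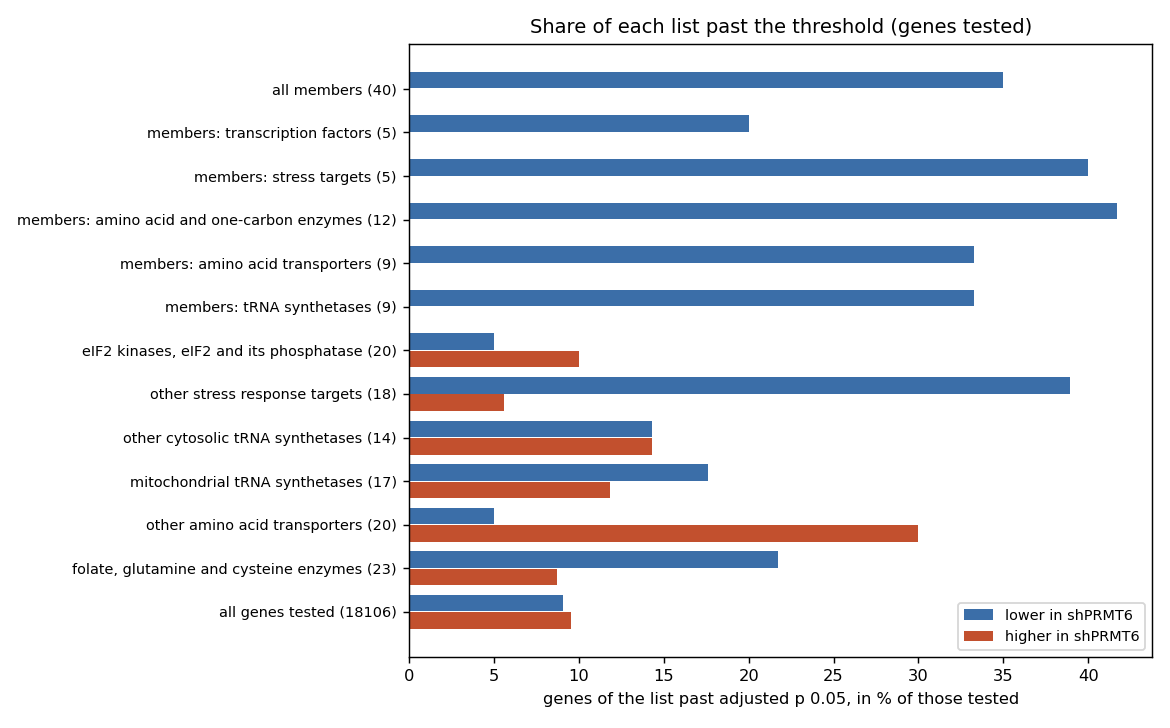
Share of each list with an adjusted p under 0.05 in the lower (blue) and higher (orange) direction, in percent of the genes tested (number in brackets), for all members, their 5 roles, 6 other lists of the pathway and all 18106 tested genes. All 5 roles of the members have a blue bar and no orange bar, between 20% and 41.7%, while other amino acid transporters show 30% higher and 5% lower.

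By role, the share of members that were lower was 1 of 5 transcription factors (20%), 2 of 5 stress targets (40%), 5 of 12 enzymes (41.7%), 3 of 9 transporters (33.3%) and 3 of 9 synthetases (33.3%). The median log2 fold change was -0.10, -0.18, -0.31, -0.52 and -0.10 in the same order. The enzyme median was -0.19 without shPRMT6 replicate 1, and the transcription factor median -0.16 without NC replicate 3. Each role thus held both members that fell and members that did not pass.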

How the data were processed

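RNA was sequenced in 3 NC and 3 shPRMT6 libraries of U87 cells, which the study calls independent replicates, and samples were grouped by their labels. The authors deposited, for each gene and library, a raw count of reads and an FPKM value, scaled to transcript length and mapped fragments, where a gene without counts is listed at 0.0001. The submitters' processing notes name HISAT2, HTSeq 0.13.5 and GRCh38, without settings. Of 60612 genes, 60401 had a symbol and 58394 were found in GENCODE 29.

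Counts were tested with edgeR 4.0.16 in R 4.3.3 (quasi-likelihood test, TMM factors from 0.992 to 1.01, filterByExpr, Benjamini-Hochberg adjustment over 18106 genes). The SE was derived from the F statistic. With 3 libraries a group, the spread between libraries limits the precision. The members and gene lists were chosen with earlier results of these data known. All members were accounted for, and those past an adjusted p of 0.05 were given by library. Of the others, the 2 of each role with the highest FPKM and those whose groups did not overlap were given with values. PSPH, CEBPG, CHAC1, ALDH1L2, CBS, SLC7A1, SLC38A1, GARS1 and WARS1 were described in more detail than this rule asks, after their values were seen. In each other list, up to 4 genes with the smallest p per direction were named. The values of some genes under this rule are not reported here. Exon overlaps and shared 75-base stretches were taken from GENCODE 29, and promoters from RefSeq (GRCh38.p14). Alternatives were DESeq2 1.42.0, other scalings and filters, a replicate block, limma 3.58.1 on log2(FPKM + 1) or log2(FPKM + 0.1) with and without a mean FPKM of at least 1, and each library left out. The programs were tested on simulated data.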

Additional observations from a re-analysis of the deposited data

How the results depend on the processing

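The 14 members that passed kept a negative fold change under every alternative, and missed the threshold in 28 of 210 fits. Over all genes, the numbers lower and higher (1641 and 1721) were 2842 and 2940 by DESeq2, 489 and 584 by limma on log2(FPKM + 1) without a filter, and 857 to 1522 and 898 to 1661 with 1 library left out. The 14 lower members became 7 by limma without a filter (0 transcription factors, 1 stress target, 3 enzymes, 1 transporter) and 9 to 14 with 1 library left out, the 9 without shPRMT6 replicate 2. By role, leaving out 1 library gave 0 to 2 transcription factors, 3 to 4 enzymes and 1 to 4 transporters lower, and DESeq2 gave 5 transporters. The 0 members higher became 2 by DESeq2 (1 transcription factor, 1 enzyme), and 1, a transcription factor, with at least 10 counts in every library and by limma on log2(FPKM + 1) or log2(FPKM + 0.1) with the filter. With 1 library left out it was 0 to 1, also for transcription factors and for enzymes alone. The members' median of -0.23 ran from -0.27 to -0.19 with 1 library left out.

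In the other lists, leaving out 1 library gave 0 to 1 lower and 1 to 2 higher for the eIF2 machinery, 4 to 7 and 0 to 1 for other stress targets, 0 to 1 and 1 to 3 for other cytosolic synthetases, 0 to 2 and 1 to 2 for mitochondrial synthetases, 0 to 1 and 1 to 3 for other transporters, and 2 to 6 and 0 to 4 for folate, glutamine and cysteine enzymes. In the same order of lists, limma without a filter gave 0, 4, 0, 0, 0 and 3 lower and 2, 0, 0, 0, 1 and 0 higher. DESeq2 gave 2 lower and 5 higher for the eIF2 machinery, 4 higher for other cytosolic synthetases, 2 lower for other transporters and 4 higher for folate, glutamine and cysteine enzymes. At least 10 counts in every library gave 2 lower for the eIF2 machinery, at least 1 count in any library gave 3 other transporters higher, and both filtered limma fits gave 1 folate, glutamine and cysteine enzyme higher. The median of the transporter members was -0.32 by limma without a filter.

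Deviations from the group mean correlated at -0.0248, -0.0171 and -0.0301 for same-numbered libraries, and at -0.0195 to 0.0449 for differently numbered ones. With 3 libraries a group these deviations are tied to each other, so they cannot decide whether the replicate numbers mark pairs. With a replicate block, 908 genes were lower and 950 higher, 11 members lower (0 transcription factors) and 1 member higher, a transcription factor. In the other lists the block gave 0 lower for the eIF2 machinery, both kinds of synthetase and other transporters, 2 other transporters higher, and 2 folate, glutamine and cysteine enzymes lower and 1 higher. The median of the members was -0.32 with the block.

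Members near zero changed sign. With 1 library left out, CEBPB ran from -0.09 to 0.02 (positive without NC replicate 1), CHAC1 from -0.04 (without NC replicate 2) to 0.16, CBS from -0.29 to 0.74, SLC7A1 from -0.04 to 0.02 and WARS1 from -0.04 to 0.07. CBS was at -0.41 with the replicate block, and SLC7A1 at 0.00 by limma in all 3 forms. The causes were not tested.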
